A study of Mus musculus with 14 samples.

Results

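The Mapt-high differentiated precerebellar neurons of the E14.5 mouse hindbrain were taken as all cells of the 6 E14.5 libraries that held at least 1000 genes, less than 10% mitochondrial unique molecular identifiers (UMIs, each standing for 1 captured RNA molecule) and, in raw UMIs per cell, at least 15 of Mapt, 2 of Barhl1, 1 of Pax6 and 2 of Hoxb2, Hoxb3 and Hoxb4 summed. These limits chose 2910 of the 49696 E14.5 cells that passed the gene and mitochondrial limits, out of 150188 barcodes in the 14 libraries of the whole series. Because the counts of these 6 genes chose the cells, the levels of Mapt, Barhl1, Pax6, Hoxb2, Hoxb3 and Hoxb4 are given as a description and were not tested. The study asked how a hypomorphic allele of Atoh1 changes the development of the pontine nuclei (PN).

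Each E14.5 library came from the whole hindbrain of 1 C57BL/6J embryo, from which living tdTomato-positive cells were sorted. Control embryos were Atoh1 Cre/+; Rosa lsl-tdTomato/+ and mutant embryos were Atoh1 Cre/S193A; Rosa lsl-tdTomato/+, named Atoh1 S193A/-, with 3 embryos per genotype. The Cre allele replaces the coding region of Atoh1, so the controls also carried a single functional copy of the gene, and Cre driven from the Atoh1 locus marks every lineage that ever expressed Atoh1, not the precerebellar neurons alone. A mutant and a control with the same replicate number were littermates and are called a pair. For the comparison of stages, the same limits were applied to 3 E18.5 control libraries of the same genotype as the E14.5 controls, where they chose 1641 cells.

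Precerebellar mossy fiber neurons arise from Atoh1-expressing progenitors of the caudal rhombic lip, migrate tangentially over the surface of the hindbrain, and settle in the PN, the reticulotegmental nucleus, the lateral reticular nucleus and the external cuneate nucleus, from where they send glutamatergic axons to the cerebellum. Barhl1 and Pax6 encode transcription factors of these neurons, Hox genes mark their position along the hindbrain, and Mapt encodes tau, a microtubule-binding protein that accumulates as the axon matures. Cnr1 encodes the cannabinoid receptor CB1 and Lmo4 a LIM-domain transcription cofactor. The limits cannot tell the precerebellar nuclei apart.

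The number of member cells was 350, 469 and 740 for controls 1, 2 and 3. It was 542, 249 and 560 for Atoh1 S193A/- embryos 1, 2 and 3. Their summed counts held between 8635246 and 18839193 UMIs per library, and the median member held between 22035.5 and 29133 UMIs. The whole E14.5 libraries held between 121762137 and 193872318 UMIs. No barcode was a member in more than 1 E14.5 library. At the edge of the rule, 132 members held exactly 15 Mapt UMIs, while between 14 and 30 cells per library passed the other limits with 14. Between 43 and 96 members per library held the single Pax6 UMI that the rule asks for.

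The label was checked by CPM, the UMIs of a gene per 1000000 UMIs, summed over members and, for comparison, over the cells that failed the Barhl1, Pax6 and Hoxb limits. Barhl1, Pax6 and the Hoxb genes chose the members, so their levels do not bear on the label. The 2 label markers that the rule did not use were higher in 6 of 6 libraries, with a median log2 ratio of 2.39 for Cnr1 and 1.99 for Lmo4. Mapt, a rule gene, had a median log2 ratio of 0.28 over the other cells and a higher value in 5 of 6 libraries. Slc17a6, which encodes the vesicular glutamate transporter VGLUT2, lay between 136 and 188 CPM in the members of the 6 libraries. Slc32a1, the vesicular transporter of inhibitory neurons, lay at or below 3.88 CPM in each. The full list of 7 inhibitory neuron genes summed to 79.9 to 112 CPM in members and 54.6 to 114 CPM in the other cells. Lhx1 of that list had a mean of 64.7 CPM in members.

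Many members had the profile of 2 cells caught in 1 droplet. Scrublet, which scores each cell by its likeness to simulated doublets, placed 902 members (31.0%) among the 7.5% of highest-scoring cells of their library. These members held a median of 38605 UMIs, against 21575.5 UMIs in the other 2008. The share of such members was 43.1% in control 2 and 41.4% in Atoh1 S193A/- 2, and between 24.8% and 30.4% in the other 4 libraries. Atoh1, the proneural gene of progenitors, lay between 49.8 and 126 CPM in the high-scoring members and between 13.4 and 45.4 CPM in the others. Cnr1 showed the opposite order, with 174 to 342 CPM in high-scoring members and 428 to 944 CPM in the others. Values without these 902 cells are given beside the main results below.

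The summed level of 9 genes of dividing cells was 392 to 559 CPM in all members and 167 to 305 CPM without the high scores. The 6 microglial genes summed to 4.71 CPM or less and the 6 genes of vessels to 12.2 CPM or less in every library. Other lists stood higher. Radial glia and astrocyte genes summed to 542 to 734 CPM, and to 387 to 695 CPM without the high scores. Genes of other Atoh1-lineage neurons summed to 173 to 427 CPM, and to 111 to 252 CPM without them. Cerebellar granule lineage genes summed to 204 to 274 CPM, and to 101 to 255 CPM without them. Hemoglobin and other blood genes summed to 956 CPM in Atoh1 S193A/- 1 and to between 3.47 and 31.6 CPM in the other 5 libraries. The 5 genes of choroid plexus and roof plate lay between 43.8 and 138 CPM in controls and between 217 and 2179 CPM in mutants, and without the high scores between 30.6 and 49.9 CPM and between 64.5 and 224 CPM. The part of these cells in the genotype comparison was not tested.

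The share of members was compared between genotypes to ask whether fewer precerebellar cells had reached high Mapt counts in mutants. Among cells that passed the Barhl1, Pax6 and Hoxb limits, members made up 30.3%, 35.7% and 40.6% in controls 1, 2 and 3, and 36.8%, 26.9% and 35.8% in Atoh1 S193A/- 1, 2 and 3. The means were 35.5% ± 5.13 in controls and 33.2% ± 5.44 in mutants (SD, n = 3), and the groups overlapped. The share was higher in the mutant of pair 1 and lower in the mutants of pairs 2 and 3. The difference on the logit scale was -0.11 with a standard error of 0.17 (limma, adjusted p = 0.539 over 4 Mapt bands, and 0.567 with the litter as a block), and an exact two-sided permutation test gave p = 0.7, where 3 against 3 cannot go below 0.1. Without the high doublet scores the difference was -0.67 percentage points, against -2.37 with them. It was -6.87 after thinning to 10000 UMIs and -7.42 with the Cell Ranger 5.0.1 libraries alone, which leave 1 control. The thinned setting left out cells of fewer UMIs and used other limits, 8 for Mapt and 1 for Barhl1, Pax6 and the Hoxb sum. Its value is therefore not the effect of depth alone.

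Among all kept cells, members made up 5.46%, 5.29% and 7.62% in controls 1, 2 and 3, and 6.82%, 3.00% and 6.62% in the mutants. The mean difference of -0.65 percentage points (-0.18 without high doublet scores) was smaller than the spread within either genotype (exact two-sided permutation p = 0.8). An exact sign-flip test over the 3 pairs gave p = 0.75, with 0.25 as the smallest value that 3 pairs allow. Mutant library 2 held the lowest share by both measures. Without both libraries of pair 2, a choice made after seeing the data, the share among gated cells was 0.84 percentage points higher in mutants.

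**Figure D1:**
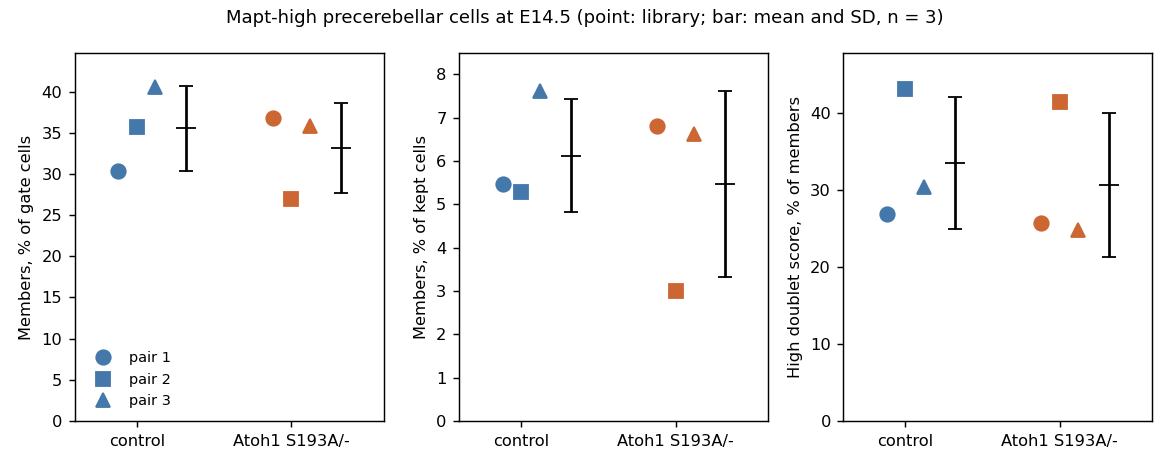
Members as a percentage of the cells that pass the Barhl1, Pax6 and Hoxb limits (left) and of all kept cells (middle), and percentage of members with a high doublet score (right), for each E14.5 library by genotype. Symbols mark the littermate pair and bars give mean and SD (n = 3), and the genotypes overlap in all 3 panels, with both libraries of pair 2 above 41% for the doublet score.

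The members fell into 10 clusters when grouped without the rule genes, and 5 of these held less than 13% of high doublet scores. Cluster 1 held 695 cells and was led by Cntn5, Kctd12, Sox5, Neto1 and Cdh7, genes of cell adhesion, channel subunits and a transcription factor. Its Cnr1 level was 1169 CPM, the highest of the 10 clusters, and Hoxa5 stood at 1160 CPM. Of the 10 top markers that the study lists for its E18.5 subtype ePN3, 5 were highest in cluster 1 among these 5 clusters. They were Hoxc4, Hoxa5, Cadm2, Rnf152 and Tenm1, against 18.6% of all 3884 genes at 50 CPM or more. Of the other ePN3 markers, Atp1b1, Meg3 and Syt4 were highest in cluster 5 and Robo2 in cluster 2. Hoxb5 was highest in cluster 6, at 310 CPM against 302 CPM in cluster 1. Of the 10 ePN1 markers, 2 were highest in cluster 1, Kctd12 and Ppp1r14c.

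In cluster 5, with 328 cells, some Hox genes were lower than in cluster 1 and others close to it. Hoxa4 was 248 CPM against 254 CPM in cluster 1, Hoxa2 148 CPM against 147 CPM, and Hoxb3 238 CPM against 266 CPM. Hoxa5 was 100 CPM, Hoxb5 was 19.1 CPM and Hoxb4 was 80.3 CPM there. It was led by Klhl1, 3110035E14Rik, Fbxl7, Ncam2 and Cntnap5a, and held the highest Lmo4 (1668 CPM) and Sst (323 CPM) levels of all 10 clusters. Sst encodes the neuropeptide somatostatin. In cluster 5, 7 of the 10 ePN2 markers and 8 of the 10 ePN4 markers were highest among the 5 clusters of low doublet share. Of the markers at 50 CPM or more in at least 1 of the 5 clusters, 5 of 7 and 7 of 8 were highest there, against 21.8% of all 3884 genes at that level. Among these 5 clusters, Ephb1 of ePN2 was lowest in cluster 5 (12.6 CPM) and highest in cluster 1 (24.5 CPM). Ntng1 of ePN4 was highest among them in cluster 8 (16.0 CPM). Over all 10 clusters, both were highest in cluster 3, at 69.8 CPM and 84.9 CPM, where 78.9% of the cells had high doublet scores. The marker lists came from the E18.5 and P5 libraries of the same study, and cluster genes were not tested, since the same cells define the clusters.

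Clusters 2 and 6 held the cells with the highest Crabp1, a retinoic acid-binding protein of migrating precerebellar neurons. Crabp1 stood at 4883 CPM in the 470 cells of cluster 2 and at 7289 CPM in the 312 cells of cluster 6, against 635 CPM in cluster 1. Cluster 2 was led by the hemoglobin genes Hbb-bt, Hba-a2, Hba-a1 and Hbb-bs and by Pou4f2. Cluster levels are sums, so a few cells can set this order, and the cells behind it were not counted. Of its 470 cells, 7 had high doublet scores. Over all clusters, blood genes summed to 2372 CPM in the high-scoring members of Atoh1 S193A/- 1 and to 82.4 CPM in its other members. Without high scores, every other library had 35.8 CPM or less. Cluster 6 was led by Crabp1, Necab2, Robo3, Crabp2 and Limch1. Robo3, a receptor that lets axons cross the midline, stood at 370 CPM and 406 CPM in clusters 2 and 6, against 19.1 CPM in cluster 1 and 16.0 CPM in cluster 5.

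Cluster 8, with 101 cells, was led by Lhx2, Ren1, Gng8, Lamp5 and Syce2. Lhx2, a LIM-homeodomain transcription factor, reached 1135 CPM, against 12.6 CPM in cluster 1. Robo3 (443 CPM) and Hoxb2 (455 CPM) were at their highest among the 10 clusters, while Hoxa5 was 71.2 CPM and Hoxb4 20.4 CPM. The remaining 5 clusters held between 53.7% and 100% of high doublet scores. Cluster 3 was led by C1ql1, Fxyd7, Zfhx3, Lhx9 and Nr4a2, cluster 4 by S100a6, Hes5, Mfap4, Nkd1 and Olig3, cluster 7 by Top2a, Ube2c, Nusap1, Esco2 and Aurkb, cluster 9 by Calb2, Tbr1, Tnfaip8, Lmx1a and Islr2, and cluster 10 by Ttr, Kcne2, Sostdc1, 2900040C04Rik and Dynlrb2. Top2a and its companions are genes of dividing cells and Ttr is the leading transcript of choroid plexus.

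The libraries of pair 2 stood apart from the other 4 in both genotypes. Cluster 6 took 37.5% of the members of control 2 and 51.0% of Atoh1 S193A/- 2, and at most 0.86% in each of the other libraries. Cluster 1 took 1.71% and 0% in pair 2, against 28.2% to 34.6% elsewhere, and cluster 2 took 1.71% and 0.40%, against 17.4% to 23.9%. Of the 328 cells of cluster 5, 22 came from pair 2. Crabp1 was 2734 CPM in control 2 and 5682 CPM in Atoh1 S193A/- 2, and between 1625 and 1988 CPM in the other 4. Cnr1 was 371 CPM and 287 CPM in pair 2, and between 598 and 721 CPM elsewhere.

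**Figure D2:**
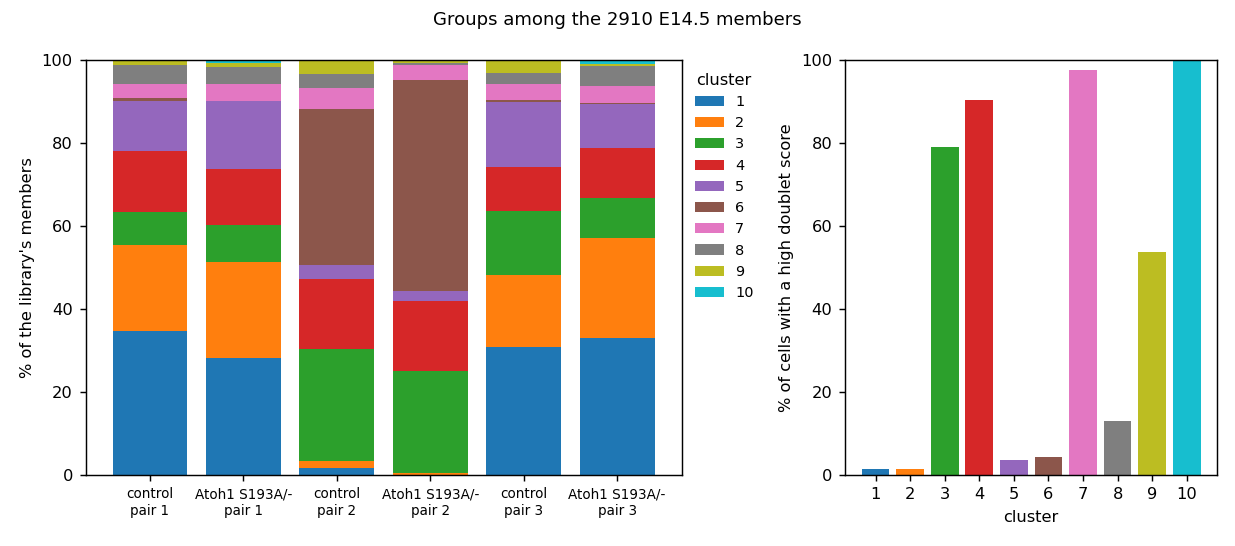
Left, percentage of the members of each E14.5 library in each of the 10 clusters; right, percentage of cells with a high doublet score in each cluster. Cluster 6 is nearly confined to the libraries of pair 2 (303 of its 312 cells), and clusters 3, 4, 7, 9 and 10 hold more than 50% of high scores.

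Members were next set beside the 2184 E14.5 cells of the same gates with 3 to 14 Mapt UMIs. Since Mapt chose both sides, the ratios describe how other genes ran along with Mapt and were not tested. Of 3564 genes at 50 CPM or more on 1 side, 68 (1.91%) had a median log2 ratio over 1 and were higher in 6 of 6 libraries, and 62 (1.74%) lay under -1 and were lower in 6 of 6.

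In the synapse and release list, 6 of 22 genes at this level met the first limit and 0 the second. Syt4, a synaptotagmin, was 416 CPM ± 41.7 in members and 63.1 CPM ± 14.9 in cells of lower Mapt (SD, n = 6), a median log2 ratio of 2.63. The synaptic vesicle protein gene Sv2a had a ratio of 1.49 and Pcsk1n, which encodes a precursor of neuroendocrine peptides, 1.17. Among receptors and channels, 3 of 11 met the first limit and 1 the second. The sodium pump subunit gene Atp1b1 had a ratio of 1.29, whereas the potassium channel gene Kcna2 had -1.11. In the guidance list 2 of 19 met the first limit, among them the adhesion gene L1cam at 89.3 CPM against 32.6 CPM, and 4 the second. In the cytoskeleton list 1 of 28 met the first, Mapt itself, and 0 the second, with the tubulin gene Tubb2a at 1218 CPM against 616 CPM.

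Subtype markers differed from list to list. Of the ePN1 markers 2 of 10 met the first limit and 2 the second, with a median of -0.27 over the list. Kctd12, the first-named of them, had a median log2 ratio of 2.10, whereas Prox1 had -0.77, Crabp1 -1.15 and Zbtb20 -1.16. In the ePN2, ePN3 and ePN4 lists 3 of 6, 4 of 9 and 5 of 7 met the first limit and 0 the second. Sst, a marker of ePN2, had 2.18. Olfm1, also of ePN2, had 1.13, and the long noncoding RNA C130073E24Rik of ePN4 had 1.24. The label markers Lmo4 and Cnr1 had ratios of 1.15 and 0.97, and 1.47 and 1.30 without the high doublet scores. Kctd12, Sst, Olfm1, C130073E24Rik, Lmo4 and Cnr1 were higher in 6 of 6 libraries with either set of cells.

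Genes of the preceding steps ran the other way. Of the 10 top markers of migrating neurons, 6 had a median log2 ratio under -1 and were lower in 6 of 6 libraries, with -1.50 for Robo3, -1.29 for Igfbpl1 and -1.28 for Nhlh2. In the list of Atoh1 and its downstream genes, 4 of 11 did so. Nhlh1, a basic helix-loop-helix factor switched on soon after Atoh1, had -1.90, and Mfng, a glycosyltransferase that modifies Notch, had -1.82. Atoh1 itself had -1.24, and -2.33 without the high doublet scores. The guidance receptor gene Dcc had -1.62. Slc17a6 differed little, at 158 CPM ± 17.5 in members and 159 CPM ± 15.5 in cells of lower Mapt (SD, n = 6).

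**Figure D3:**
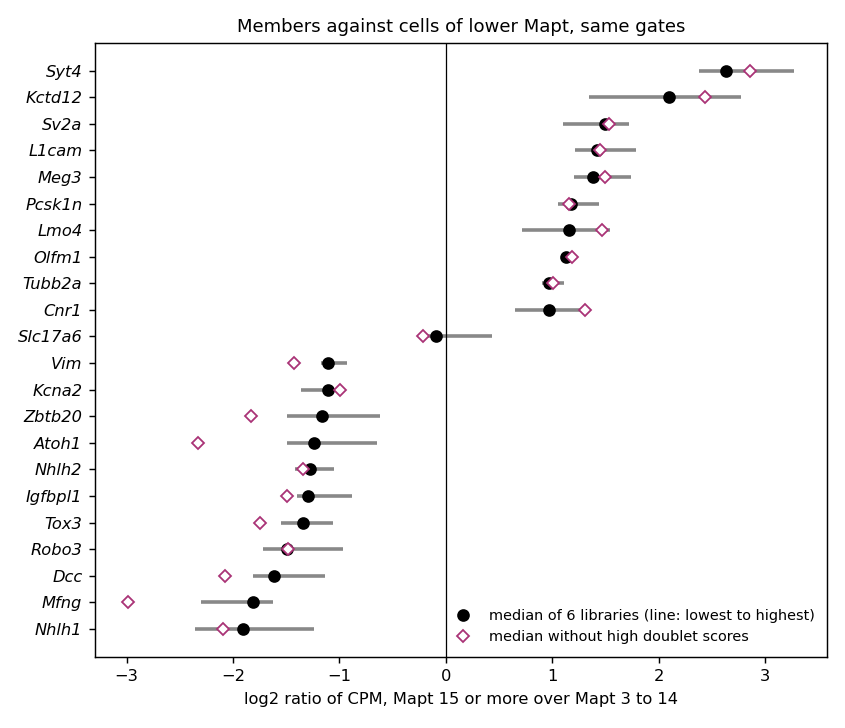
Log2 ratio of CPM in members over cells of the same gates with 3 to 14 Mapt UMIs for 22 genes. Points are medians and lines the lowest to highest of the 6 E14.5 libraries, open diamonds are medians without high doublet scores, and Syt4 (2.63) and Nhlh1 (-1.90) mark the ends.

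The members were then compared with the cells that the same limits choose from the E18.5 controls, 4 embryonic days later. By edgeR's quasi-likelihood test, 1001 of 10748 genes (9.31%) changed at an adjusted p under 0.05 with an absolute log2 change over 1, 619 (5.76%) higher and 382 (3.55%) lower at E18.5. The median over all genes tested was 0.00 on the log2 scale. High doublet scores made up 26.9% to 43.1% of the E14.5 control cells and 17.5% to 20.8% of the E18.5 control cells, and without them 1265 of 10352 genes (12.2%) changed, 7.94% higher and 4.28% lower. With the mutant libraries of both stages in place of the controls, 1079 of 10803 (9.99%) changed, 6.25% higher and 3.74% lower. The stages came from different litters, which cannot be told apart from stage, and E14.5 controls 1 and 2 had been counted by an older Cell Ranger version than the others.

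Among Hox genes outside the rule that passed the detection filter in both stages, Hoxa2, Hoxa4, Hoxa5, Hoxb5, Hoxc4 and Hoxd3 fell and 0 rose. Of all 9937 genes that passed in both stages, 2.33% fell and 3.81% rose. Hoxb2, Hoxb3 and Hoxb4 also passed, and Hoxb2 and Hoxb4 fell, but these genes were part of the rule and are description only. Hoxb6, Hoxb7, Hoxb8, Hoxc5 and Hoxc6 passed the filter at E14.5 alone, through the stage where they were high, and are given as values. Hoxa5 was 592, 466 and 434 CPM in E14.5 controls 1, 2 and 3 and 150, 114 and 116 CPM in the E18.5 controls. The stages did not overlap, and Hoxa5 fell by 2.08 ± 0.13 on the log2 scale (SE, n = 3 per stage, edgeR adjusted p = 1.89e-06). Hoxb5 fell by 2.14 ± 0.11 (adjusted p = 5.32e-07). Hoxc5 had 78.3 CPM ± 21.7 at E14.5 and 5.25 CPM ± 0.49 at E18.5 (SD, n = 3), and Hoxc6 had 22.0 CPM ± 11.99 at E14.5 and 0.46 CPM ± 0.38 at E18.5. Hox genes of higher number are used at more caudal positions.

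Of the 10 top markers of migrating neurons, Crabp1, Robo3 and Rgmb fell, 7 did not pass and 0 rose, and 5 fell without high doublet scores. All 10 passed the filter in both stages, and of all genes that did so 2.33% fell and 3.81% rose. Without high doublet scores, 4.28% of all genes tested fell. Crabp1 was 1988, 2734 and 1947 CPM in the E14.5 controls and 306, 232 and 202 CPM in the E18.5 controls, a fall by 3.29 ± 0.18 (edgeR adjusted p = 6.49e-06). Crabp2, its paralog, which passed the filter at E14.5 alone, had 115 CPM ± 46.5 at E14.5 and 1.07 CPM ± 0.71 at E18.5 (SD, n = 3). The calcium-binding protein gene Necab2 decreased by 3.53 ± 0.36 (adjusted p = 0.000672). Robo3 fell by 2.37 ± 0.31 and the guidance ligand gene Rgmb by 1.59 ± 0.12.

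The promoters of Crabp1 and Hoxa5, which fell together, are shown with the hexamer AGGTCA, the core of retinoic acid receptor sites, searched on both strands, in capitals where it occurs. They are RefSeq sequences of GRCm38.p6 from 250 bases before the start of transcription, and Crabp1 lies at chr9:54764498-54764797 on the plus strand and Hoxa5 at chr6:52204538-52204837 on the minus strand, each upstream of and into the first exon.
Crabp1: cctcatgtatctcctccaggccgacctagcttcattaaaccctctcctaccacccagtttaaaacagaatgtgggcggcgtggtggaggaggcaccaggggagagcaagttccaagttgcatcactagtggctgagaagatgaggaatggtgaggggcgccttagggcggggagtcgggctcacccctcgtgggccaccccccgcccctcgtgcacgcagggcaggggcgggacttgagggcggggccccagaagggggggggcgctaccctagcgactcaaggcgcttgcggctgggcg
Hoxa5: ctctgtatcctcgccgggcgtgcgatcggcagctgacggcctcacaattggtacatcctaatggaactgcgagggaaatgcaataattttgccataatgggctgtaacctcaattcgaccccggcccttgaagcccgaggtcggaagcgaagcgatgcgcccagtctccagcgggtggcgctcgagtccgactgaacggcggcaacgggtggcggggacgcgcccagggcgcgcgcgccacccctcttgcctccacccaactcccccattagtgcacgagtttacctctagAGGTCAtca
The hexamer occurred once in the Hoxa5 promoter, starting 41 bases after the start site, and not in that of Crabp1, and 16.3% of 32851 promoters of 300 bases held it. These matches describe the sequence and are not evidence of binding.

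Transcription factors changed in both directions. Of the 31 genes of the precerebellar list that passed the filter in both stages, 7 fell and 4 rose. Of all genes that did so, 2.33% fell and 3.81% rose. Evx1, Lhx9 and Pou4f1 passed at E14.5 alone, the stage where they were high, and are not counted. Pbx3, a Hox cofactor, was 221, 308 and 214 CPM at E14.5 and 61.5, 46.0 and 50.9 CPM at E18.5 and fell by 2.34 ± 0.15 (edgeR adjusted p = 7.92e-06). Meis2, another Hox cofactor, fell by 2.09 ± 0.23, and the LIM-homeodomain gene Lhx2 by 3.51 ± 0.29. Nfix, a nuclear factor I gene of late neuronal differentiation, rose from 343, 222 and 363 CPM to 1546, 1697 and 1461 CPM, by 2.23 ± 0.19 (adjusted p = 8.09e-05). Prox1, a homeobox gene, stood at 59.5 CPM ± 6.01 at E14.5 and 111 CPM ± 7.84 at E18.5 (n = 3), a log2 difference of 0.79 that did not reach the limit of 1.

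Of 35 receptor and channel genes tested, 15 rose, 0 fell and 20 did not pass. All 15 were among the 33 genes of the list that passed the filter in both stages (45.5%). Of all genes that did so, 3.81% rose and 2.33% fell. Without high doublet scores, 19 genes of the list rose and 0 fell. Gabra2, a GABA-A receptor subunit, was 21.1, 18.8 and 29.9 CPM in the E14.5 controls and 133, 149 and 164 CPM in the E18.5 controls, and rose by 2.55 ± 0.20 (edgeR adjusted p = 6.63e-05). Grm5, a metabotropic glutamate receptor, rose by 2.32 ± 0.27. The NMDA receptor subunit gene Grin2b rose from 89.7 CPM ± 11.4 to 312 CPM ± 60.8 (SD, n = 3), by 1.69 ± 0.17 on the log2 scale (adjusted p = 0.000133). Over all genes at 50 CPM or more in 1 stage, Fibin, Adamts18, Gabrg1, Grm3 and Gas7 had the largest rises. Their log2 changes were 5.13, 4.90, 4.53, 3.87 and 3.36. Fibin, Adamts18 and Grm3 passed the filter at E18.5 alone, the stage where they were high, and are given as values. Gabrg1 and Grm3 encode a further GABA-A receptor subunit and metabotropic glutamate receptor.

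Guidance genes changed in both directions. Of the 43 guidance genes that passed the filter in both stages, 8 rose and 7 fell, against 3.81% and 2.33% of all genes that did so. Nrp1, a receptor of class 3 semaphorins, was 41.2, 34.7 and 45.9 CPM at E14.5 and 196, 211 and 199 CPM at E18.5, and rose by 2.20 ± 0.12 (edgeR adjusted p = 6.77e-07). The adhesion genes Cntn1 and Cdh8 rose by 2.33 ± 0.11 and 2.56 ± 0.17. The guidance ligand gene Slit3, which passed the filter at E18.5 alone, had a log2 change of 2.32 ± 0.18. Of the 33 synapse and release genes that passed the filter in both stages, 5 rose and 0 fell. Over the 34 tested, 7 rose without high doublet scores and 11 in the mutant libraries. Cbln2 passed the filter at E14.5 alone, the stage where it was high, and had a log2 change of -2.55, given as a value. Syt1, the calcium sensor of release, rose by 1.40 ± 0.12 and the active-zone gene Pclo by 1.57 ± 0.19.

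In the cytoskeleton list 1 of 29 genes rose (3.45%) and 3 fell (10.3%). Of all genes that passed the filter in both stages, 3.81% rose and 2.33% fell. Without high doublet scores, 2 genes of the list rose and 2 fell. The intermediate filament genes Ina, Nefl and Nefm fell by 1.38, 1.10 and 1.03 on the log2 scale, while the microtubule-associated gene Map1a rose by 1.03. The Nefm change did not reach the limits without high doublet scores (adjusted p = 0.0782) and was -0.76 without E14.5 control 2 and -0.95 without E18.5 control 2. That of Map1a was 0.91 without E14.5 control 1 and 0.97 without E18.5 control 1, under the limit of 1. Mapt, a rule gene, stood at 1189 CPM ± 103 and 1841 CPM ± 146. Slc17a6 was 151 CPM ± 13.2 and 152 CPM ± 17.2 (n = 3).

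Of the label markers, Lmo4 rose and Cnr1 did not pass the limit. Lmo4 was 583, 515 and 824 CPM in the E14.5 controls and 1204, 1655 and 1807 CPM in the E18.5 controls, a rise of 1.17 ± 0.26 (edgeR adjusted p = 0.00983), which was 0.92 without high doublet scores and 1.09 without E14.5 control 1 (adjusted p = 0.0526). Cnr1 was 526 CPM ± 134 and 331 CPM ± 11.8 (SD, n = 3), a log2 difference of -0.78, and it fell by 1.26 without high doublet scores. Of the 6 endocannabinoid genes that passed the filter in both stages, 0 rose and 0 fell. Dagla and Mgll encode enzymes that make and break down the endocannabinoid 2-arachidonoylglycerol. Both passed the filter at E18.5 alone, the stage where they were higher, and are given as values. Their log2 changes were 1.22 and 1.49, from mean levels under 4 CPM. The subtype lists were derived by the study in part from these E18.5 libraries. Their counts stand beside 3.81% rising and 2.33% falling of all genes that passed the filter in both stages. For ePN2, 5 of 10 genes rose and 0 fell, among them the kinase gene Camk4 by 3.30 ± 0.16. For ePN4, 0 rose and 3 fell, but 2 rose and 2 fell without high doublet scores and 1 rose and 1 fell in mutant libraries. For ePN1 and ePN3, 2 rose and 3 fell each. For the P5 subtypes, counting genes that passed the filter in both stages, the number that rose and fell was 1 and 0 for PN1, 7 and 0 for PN2, 1 and 2 for PN3, 0 and 3 for PN4, 3 and 1 for PN5, and 1 and 1 for PN6.

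Genes of other cell types moved with stage. Of other Atoh1-lineage neuron genes, Lhx2 alone passed the filter in both stages, and it fell. Foxp2, Lhx9, Pax5 and Pou4f1 passed at E14.5 alone, where they were high. Among genes that passed in both stages, 2 of 4 radial glia genes fell, Sox2 and Vim. Of 3 unipolar brush cell genes 2 rose, Otx2 and Eomes, with Eomes at 12.5 CPM ± 1.67 and 92.2 CPM ± 18.6. Of all genes that passed in both stages, 2.33% fell and 3.81% rose. Counting genes that passed in either stage, 4 radial glia genes fell with all members and 1 without high doublet scores. In the same order, 5 and 2 other Atoh1-lineage neuron genes fell, and 3 and 2 unipolar brush cell genes rose. Of all genes tested, 3.55% fell and 5.76% rose with all members, and 4.28% fell and 7.94% rose without high doublet scores. Atoh1 fell by 2.31 ± 0.38 with all members (edgeR adjusted p = 0.00409) and by 1.86 without high doublet scores. Their part in the other changes was not tested.

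**Figure D4:**
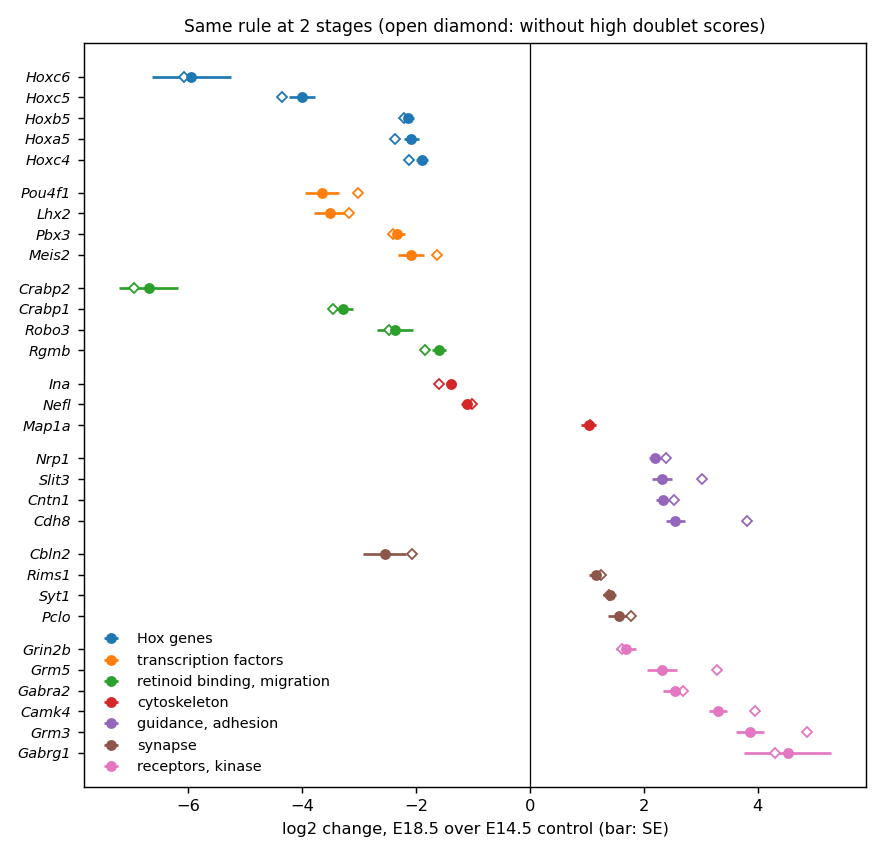
Log2 change from E14.5 to E18.5 control cells chosen by the same limits, with SE bars (n = 3 libraries per stage), for 30 genes colored by group, with open diamonds for the change without high doublet scores. Hoxa5, Hoxb5, Hoxc4 and Crabp1 lie left of zero, and the receptors other than Grm3 right of it, under both selections. Hoxc5, Hoxc6, Pou4f1, Crabp2 and Cbln2 passed the filter at E14.5 alone, and Slit3 and Grm3 at E18.5 alone. These genes entered through the stage where they were high and are shown as values.

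Few genes were called between genotypes in the members. Each value is a sum over cells, so fewer cells of a kind and less RNA per cell cannot be told apart. As planned, edgeR called 0 of 10590 genes (0%) at an adjusted p under 0.05 with an absolute log2 change over 0.25. That fit left out the pairing of littermates, and its count does not show how many genes differed. An unadjusted p under 0.05 was found for 266 genes in that comparison and for 1578 with the litter as a block. With the litter as a block, which the design of littermates allows, 5 genes (0.0472%) were called and all 5 were lower in mutants, Pcp4, Tnfaip8, Rab15, Selenom and the unnamed model Gm2694. DESeq2 called 2 genes (0.0189%), Tnfaip8 and Calb2, both lower. Over all genes tested, the libraries of the genotypes did not overlap for 1107 (10.5%), with 8.03% higher and 2.43% lower in mutants. With the block and without high doublet scores, 2 of 10041 genes (0.0199%) were called, Kitl higher (0.00996%) and Pcp4 lower (0.00996%).

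Pcp4 and Rab15, members of the list of Atoh1 and its downstream genes, were lower in the mutant of each pair. Pcp4 encodes a calmodulin-binding protein and was 207, 429 and 184 CPM in controls 1, 2 and 3 and 117, 254 and 136 CPM in the mutants. The genotypes overlapped because pair 2 was higher in both, and within pairs its log2 difference was -0.71 (edgeR with the block, adjusted p = 0.00967, and 0.989 without it). Without high doublet scores and with the block the log2 difference was -0.83 (adjusted p = 0.0417). Kitl, the ligand of the receptor Kit and no member of that list, was the other gene called with the block and without high doublet scores, at 25.0, 17.5 and 24.0 CPM in controls and 33.5, 29.4 and 35.9 CPM in mutants over all members (log2 difference 0.96 without high scores, adjusted p = 0.0417). Rab15, a small GTPase of endosome recycling, was 34.4, 30.8 and 20.4 CPM in controls and 23.1, 16.3 and 13.6 CPM in mutants. Its log2 difference was -0.72 with the block (adjusted p = 0.0424) and -0.32 with the block and without high doublet scores (adjusted p = 0.381). The older Cell Ranger version was used for controls 1 and 2 and for no mutant. With the 5.0.1 libraries alone, the log2 difference was -0.20 for Pcp4 and -0.27 for Rab15, with 1 control.

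The promoters of these 2 genes are shown with the E-box sequences CAGCTG and CAGATG, which Atoh1 and related factors recognize, searched on both strands and set in capitals. Both are RefSeq sequences of GRCm38.p6, at chr16:96467356-96467655 on the plus strand for Pcp4 and at chr12:76822475-76822774 on the minus strand for Rab15, the first of 4 listed start sites of that gene.
Pcp4: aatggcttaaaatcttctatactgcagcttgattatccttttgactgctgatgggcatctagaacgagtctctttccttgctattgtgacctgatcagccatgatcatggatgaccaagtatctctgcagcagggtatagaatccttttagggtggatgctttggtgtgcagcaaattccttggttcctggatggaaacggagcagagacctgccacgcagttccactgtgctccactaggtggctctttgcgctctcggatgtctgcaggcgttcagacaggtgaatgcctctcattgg
Rab15: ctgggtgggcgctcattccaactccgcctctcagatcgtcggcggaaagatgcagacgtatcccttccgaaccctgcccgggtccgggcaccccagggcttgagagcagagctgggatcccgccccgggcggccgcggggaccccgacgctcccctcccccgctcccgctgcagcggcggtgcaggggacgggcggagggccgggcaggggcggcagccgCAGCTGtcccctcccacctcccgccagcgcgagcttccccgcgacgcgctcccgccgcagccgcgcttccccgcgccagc
The window of Rab15 held 1 CAGCTG, starting 30 bases before the start site, and that of Pcp4 held neither sequence, while 30.6% of 32851 promoters held at least 1 of them. A match does not show binding, and its absence here says nothing of sites elsewhere.

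Of the 10 genes of smallest p, 2 also led cluster 9, where 53.7% of the cells had high doublet scores. Calb2, the calcium-binding protein calretinin, was 39.3, 51.7 and 61.0 CPM in controls and 20.97, 13.4 and 10.5 CPM in mutants. Tnfaip8, a regulator of cell death and inflammation, was 21.2, 22.9 and 18.05 CPM in controls and 12.5, 10.1 and 10.2 CPM in mutants. Cluster 9 held 4, 16 and 23 members of controls 1, 2 and 3 and 6, 2 and 3 of the mutants. Pcp4 was also highest in cluster 9 (949 CPM) and next in cluster 8 (733 CPM). Cluster 8 held 16, 16 and 20 members of controls 1, 2 and 3 and 22, 1 and 26 of the mutants. The part of these clusters in the differences was not tested. Neither Calb2 nor Tnfaip8 overlapped between genotypes. Without high doublet scores Tnfaip8 did not pass the filter of detection in 10% of cells, and Calb2 had a log2 difference of -1.55 (adjusted p = 0.999).

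The other genes of smallest p in the comparison as planned had adjusted p values of 0.989. Cdon, a co-receptor of hedgehog signaling, and Pla2g7, a phospholipase, were higher in mutants by log2 differences of 0.73 and 0.79, and of 0.44 and 0.47 without high doublet scores. The RNA-binding protein gene Rbm24 was higher by 0.73 and the transcription factor gene Prdm16 by 0.92. Selenom, which encodes selenoprotein M, was 63.3, 70.0 and 69.4 CPM in controls and 50.1, 53.0 and 49.9 CPM in mutants, a log2 difference of -0.45 ± 0.09 (SE), called with the block (adjusted p = 0.0474) but not when high doublet scores were also left out (-0.26, adjusted p = 0.384). Resp18, Ckmt1 and Tspan17, genes of secretory granules, mitochondria and membranes, were lower, with log2 differences of -0.37, -0.49 and -0.53, and of -0.32, -0.30 and -0.34 without high doublet scores. Of these 8 genes, Selenom alone was called with the block.

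Of the 17 genes of the Atoh1 and downstream list, 16 were tested, and 2 were called with the block, against 0.0472% of all genes. The study had named Pcp4 and Rab15 from these same libraries, so this count is not independent evidence. Atoh1 itself was 55.6, 54.6 and 29.1 CPM in controls and 67.6, 77.2 and 53.1 CPM in mutants, higher in the mutant of every pair. Its log2 difference was 0.47 ± 0.25 (SE, edgeR adjusted p = 0.989), and 0.81 with the block and without high doublet scores (adjusted p = 0.055). The S193A change lies in the coding sequence, so these counts do not check the genotype. The reporter sequence WPRE was 327 to 461 CPM in controls and 297 to 563 CPM in mutants.

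Since 0% of all genes were called as planned, the label markers and maturation lists are given by their values. Cnr1 was 609, 371 and 598 CPM in controls and 614, 287 and 721 CPM in mutants, a log2 difference of 0.00 ± 0.38 (SE). Lmo4 was 583, 515 and 824 CPM in controls and 613, 507 and 776 CPM in mutants, a difference of -0.07 ± 0.22. In the synapse and release list 25 of 34 genes had lower values in mutants and in the cytoskeleton and growth cone list 22 of 29, with medians of -0.11 and -0.08 against 0.02 over all genes, of which 4897 of 10590 were lower. The 9 immediate early genes tested and the 6 radial glia and astrocyte genes tested were all higher in mutants, each list with a median of 0.31. Their part in the other differences was not tested. Of 15 Hox genes tested, 9 were higher and 6 lower in mutants. All 10 ePN2 markers were lower in mutants with a median of -0.15, and 1 of them, Pcp4, was called with the block.

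**Figure D5:**
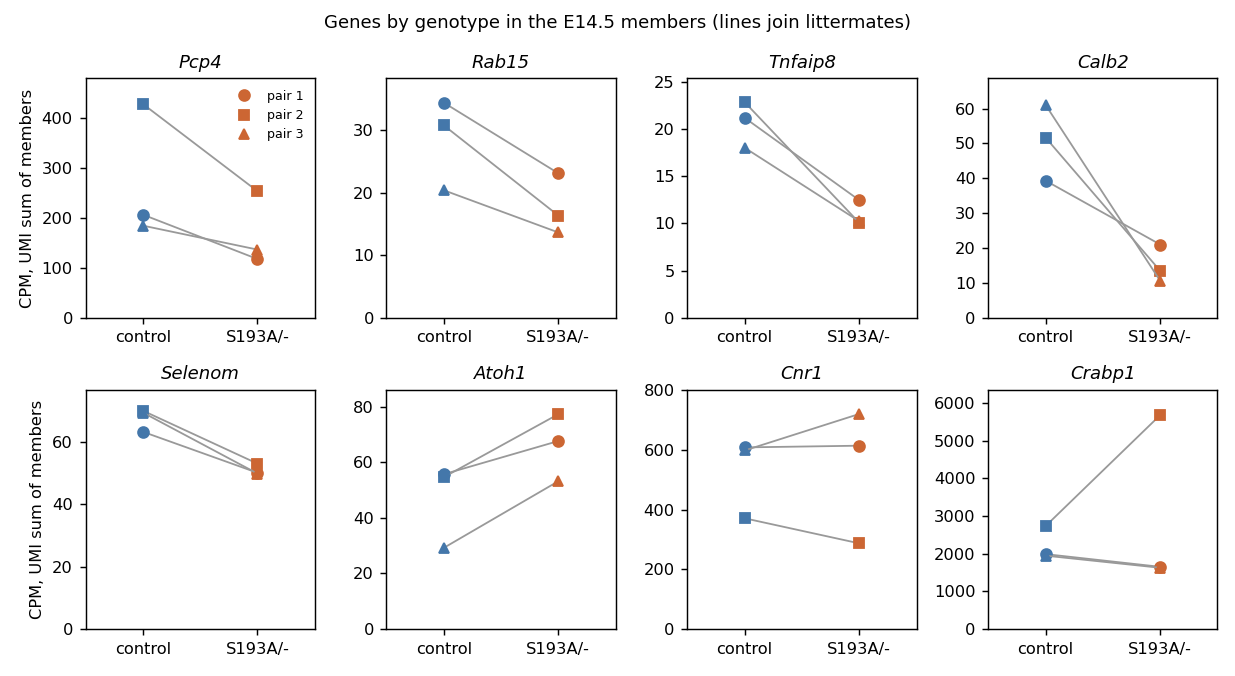
CPM of 8 genes in the summed member cells of each E14.5 library, with lines joining the littermates of a pair. Pcp4, Rab15, Tnfaip8, Calb2 and Selenom are lower and Atoh1 is higher in the mutant of each of the 3 pairs, while Cnr1 is lowest and Crabp1 highest in both libraries of pair 2.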

How the data were processed

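The authors deposited raw UMI counts per gene and cell for 14 10x Chromium 3′ libraries, made with Cell Ranger against mm10 with the WPRE reporter sequence added. Per the labels the version was 5.0.1, while the headers of E14.5 control 1 and 2 name 3.1.0. Counts were used as deposited, with no correction for free RNA. The members and lists were chosen with earlier results of these data known. Doublets were scored with Scrublet and marked, not removed.

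UMIs were summed over members per library, so that the embryo is the replicate, and tested with edgeR 4.0.16 (quasi-likelihood, TMM scaling, Benjamini-Hochberg adjustment) on genes with a UMI in 10% or more of a group's cells. Genotype calls needed an adjusted p under 0.05 and an absolute log2 change over 0.25, and stage calls a change over 1. Shares were tested with limma 3.58.1 on the logit scale with 0.5 cells added. DESeq2 1.42.0 was an alternative. Tests were checked on simulated data. Clusters came from scanpy 1.11.5 (2000 variable genes, 30 components, 15 neighbors, Leiden resolution 0.5). Cells, genes and sex-linked or mitochondrial features outside these filters were not analysed here.

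The protocol took a mutant and a littermate control in each of 3 experiments, and samples of the same number deviated together (r = 0.399, 0.697 and 0.556 over 10590 genes), so the numbers pair them. Genes were named by a rule: rule genes and label markers, called genes or the 10 of smallest p for genotype, up to 4 called genes of each list and the 5 largest rises and falls for stage, up to 3 per list for lower Mapt, the first marker of each subtype, and 5 leading genes per cluster. Genes called with the block were named after their values were seen. Promoters were matched by symbol in a RefSeq table for 4 of the 4 genes shown.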

Additional observations from a re-analysis of the deposited data

How the results depend on the processing

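Doublets, the unusual cells of pair 2 and 3 libraries per group limit these results, and low counts limit genes of a few CPM. Between genotypes, 0 genes were called as planned, 2 by DESeq2, 5 with no gene filter and 5 with the replicate block, which pairs littermates. Leaving out 1 library gave 0 to 3, with 3 higher genes without Atoh1 S193A/- replicate 2 (1500015O10Rik, Htra1 and Hes1) and 1 lower without control replicate 3. Alternatives chosen after seeing the data gave 2 with the block and no high doublet scores, and 4 without both libraries of pair 2, but 0 when high doublet scores were also left out. The cause was not tested. The difference in member share among gated cells ranged from -4.98 to 0.75 percentage points when 1 library was left out, and was 0.15 without control replicate 3 and 0.84 without pair 2. That among kept cells ranged from -1.32 to 0.59, and was 0.0986 without control replicate 3 and 0.176 without pair 2. The block changed no other call of the shares. For stage, 2127 genes were called with no gene filter, where 21885 were tested, against 1001, and 878 to 1165 when 1 library was left out. With members thinned to 8000 UMIs, 692 of 8245 genes (8.39%) were called. Of 1396 repeats for 81 named stage genes, 1325 kept their call and 71 lost it. Of 270 for 14 genotype genes, 261 stayed uncalled and 9 were called. In neither did a called value change sign. The stage genes, among them the rule genes Hoxb2 and Hoxb4, were named because they were called in these data, which favors kept calls. Repeats in which a gene was not tested are not in these counts.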
